A study of Mus musculus with 2 samples.

Results

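Retinal ganglion cell (RGC) nuclei were examined in a spatial single-nucleus data set of mouse retina. Their members were chosen by measured counts of unique molecular identifiers (UMIs, 1 per captured RNA molecule). Barcodes with fewer than 200 genes, or with 10% or more of their UMIs on mitochondrial genes, were dropped. A kept barcode was taken as an RGC nucleus when Slc17a6 had at least 2 UMIs, when Slc17a6, Rbpms, Pou4f1, Pou4f2 and Pou4f3 together had at least 5, and when Gad1, Gad2 and Slc6a9 together had at most 2. The rule found 233 nuclei among 16867 kept nuclei of 17285 barcodes, a share of 1.38% (exact binomial 95% interval 1.21 to 1.57%).

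The series is about mice heterozygous for the C213Y allele of Prph2, a photoreceptor disc protein gene, on the C57BL/6J background, with wild-type mice of the same age and sex as controls. Its 2 samples, both named T1, are the expression library and the spatial-barcode library of 1 SeekSpace experiment, which ties each nucleus to a point on a capture chip. The labels give fresh-frozen retina cut at 10 µm, 1 section of 1 eye, no treatment, and an age of 6 months for the spatial work. They give T1 no genotype, so no sample has a group, no genotype was inferred, and every value below describes 1 library without replicates.

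RGCs are the output neurons of the retina: they collect signals from bipolar and amacrine cells, and their axons form the optic nerve. They release glutamate, which the vesicular transporter encoded by Slc17a6 loads into vesicles, and their identity during development depends on POU4 and Islet transcription factors. In the mouse they comprise many types, which differ in dendrite shape, light response and transcription factors, and their bodies lie in the innermost nuclear layer, the one farthest from the retinal pigment epithelium (RPE).

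The nuclei did not lie as 1 piece of tissue. They formed 4 ring-shaped pieces, numbered from left to right on the chip, with 4406, 4196, 3695 and 4570 kept nuclei, whereas the labels describe 1 section of 1 eye. The pieces also differed in sex-linked transcripts. Xist, the RNA that coats the inactive X chromosome in female mammals, had 6, 2, 4 and 120 UMIs in the RGC nuclei of pieces 1 to 4, and the Y-linked genes together had 63, 101, 158 and 5. Piece 4 thus stood apart from pieces 1 to 3 in both. Whether the pieces came from 1 or several animals is not given in the labels. Leaving out piece 4, or any other piece, left the number of genes called higher in RGC nuclei within 231 to 256.

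RGC nuclei held 2338168 UMIs, with a median of 8989 per nucleus (1726 to 40843) and 3491 genes. They were set against 3 sets of interneurons: 733 GABAergic amacrine nuclei (median 5747 UMIs), 439 glycinergic amacrine nuclei (4595) and 1411 bipolar nuclei (3378). Gad1, Gad2 and Slc6a9 of the rule were among the genes that chose these sets. Nuclei with any Slc17a6 UMI were left out of all 3, and the effect of that filter on the contrasts was not tested. A set of 4141 rod nuclei (1188) and a set of 439 RPE nuclei (4993) served for contamination and position. Where 3 levels stand together beside that of RGC nuclei, they are those of GABAergic amacrine, glycinergic amacrine and bipolar nuclei, in that order. Levels are given as CPM: a gene's UMIs in a set, summed over its nuclei and scaled to a total of 1e+06 UMIs for the set, with exact Poisson 95% intervals. These intervals, and the exact binomial intervals of shares, cover counting error only, because nuclei of 1 library are not replicates. No p-value was computed. Since RGC nuclei were the deepest of these sets, shares of nuclei with a UMI are also given after thinning every nucleus to 2000 UMIs, which left out 1 RGC, 15 GABAergic amacrine, 15 glycinergic amacrine, 170 bipolar and 3396 rod nuclei.

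The genes of the rule are described here only as what chose the nuclei. Slc17a6 (chromosome 7, 51621830 to 51671126 in GRCm38.p6) had 2 to 18 UMIs per nucleus with a median of 3. Rbpms, an RNA-binding protein gene used to stain RGCs, had 1 to 54 UMIs with a median of 16. Most of the identity sum therefore came from Rbpms. Pou4f1 was detected in 143 nuclei (61.4%), Pou4f2 in 64 (27.5%) and Pou4f3 in 30 (12.9%). These factors, which act in RGC differentiation and survival, overlapped in part: 92 nuclei held only Pou4f1 (39.5%), 30 only Pou4f2 and 8 only Pou4f3, while 29 held Pou4f1 with Pou4f2, 17 Pou4f1 with Pou4f3, 5 all of them, and 52 (22.3%) none. At 1 or 2 UMIs per nucleus a missing count does not show that a factor was absent. Among the inhibitory genes, 72 RGC nuclei (30.9%) held 1 or 2 UMIs of Gad1, Gad2 or Slc6a9.

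At the edge of the rule, marker levels stood as follows. The 59 nuclei with 2 Slc17a6 UMIs had Nefl at 482 CPM, Rbpms at 1986 CPM and Thy1 at 589 CPM, and the 58 nuclei left out for a single Slc17a6 UMI had 506, 2425 and 592 CPM. The 14 nuclei with an inhibitory sum of 2 had Nefl at 741 CPM, and the 20 left out for a sum above 2 had 541 CPM. Rbpms counts toward the identity sum, so its level on each side follows in part from the rule. The 5 members with the lowest identity sum of 5 had Nefl at 665 CPM and Ebf3 at 310 CPM, and the 3 nuclei left out with a sum of 4 had 1011 and 101 CPM. The share of RGC nuclei depends on where the rule cuts and is not a count of all RGCs. With a looser rule (identity sum of at least 3 and 1 Slc17a6 UMI), 305 nuclei would be members.

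The promoter of Slc17a6, the gene that gates membership, is shown with that of Isl2, an Islet-family identity factor taken up below. Sequences are those of RefSeq on GRCm38.p6, running from 250 bases before to 50 bases after an annotated start. For Slc17a6 the window of start site 2 is chr7:51624387-51624686 on the plus strand, and for Isl2 it is chr9:55540899-55541198 on the plus strand. Capitals mark a match to ATAATTAAT, a POU4-type motif, searched on both strands.

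Slc17a6: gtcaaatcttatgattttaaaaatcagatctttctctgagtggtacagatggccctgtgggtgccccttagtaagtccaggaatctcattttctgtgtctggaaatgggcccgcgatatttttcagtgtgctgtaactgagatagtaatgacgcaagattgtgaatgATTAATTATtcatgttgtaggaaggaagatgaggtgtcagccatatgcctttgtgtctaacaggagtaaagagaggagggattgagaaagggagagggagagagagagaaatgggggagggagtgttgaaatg
Isl2: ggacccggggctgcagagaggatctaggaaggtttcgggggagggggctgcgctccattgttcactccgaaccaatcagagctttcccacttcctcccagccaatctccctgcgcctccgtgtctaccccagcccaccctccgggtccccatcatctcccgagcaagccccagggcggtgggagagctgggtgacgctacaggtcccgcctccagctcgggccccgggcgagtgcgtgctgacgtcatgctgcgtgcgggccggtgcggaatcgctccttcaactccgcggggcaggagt

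The other Slc17a6 window, that of start site 1 (chr7:51621580-51621879, plus strand), is not shown and held no match. The match in the window of start site 2 reads ATTAATTAT and begins 83 bases before the start. The Isl2 window held none. ATAATTAAT occurred in 90 of 32851 promoters of 27025 genes (0.274%), in 1 of 4 promoters of genes of the rule (3 of 4 genes sought were matched), and in 0 of 53 promoters of the list and leading genes called higher in RGC nuclei (41 of 59 such genes were matched by symbol). The spelling of the motif was chosen after several had been tried, and a match describes letters, not a bound site.

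The label held against markers outside the rule. Nefl, which encodes the light neurofilament subunit of large axons (chromosome 14, 68083863 to 68089095), stood at 679 CPM (646 to 713) in RGC nuclei, against 17.5, 9.17 and 2.20 CPM in GABAergic amacrine, glycinergic amacrine and bipolar nuclei. It was detected in 222 of 233 RGC nuclei, with a median of 5 and a maximum of 76 UMIs. After thinning, 62.5% of RGC nuclei held a Nefl UMI, against 2.92, 1.89 and 0.322% of the same 3 sets. Thy1, a surface glycoprotein gene long used to label RGCs (chromosome 9, 44043384 to 44048579), stood at 653 CPM (620 to 686), against 78.9, 23.9 and 3.30 CPM, and was detected in 226 nuclei. The summed level of the 6 RGC markers, 4 of which belong to the rule, was 3605 CPM in RGC nuclei and lay between 3510 and 3726 CPM in the 4 pieces, which describes the choice of nuclei and is no check of the label.

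Transcripts from the marker lists of other cell types were present. The 6 rod markers summed to 180 CPM in RGC nuclei (120 to 247 in the pieces), against 363, 914, 935 and 19365 CPM in GABAergic amacrine, glycinergic amacrine, bipolar and rod nuclei. The bipolar list summed to 295 CPM (163 to 424 in the pieces) and the amacrine list, part of which the rule limits, to 398 CPM, against 14218 CPM in bipolar nuclei and 2829 and 2853 CPM in the amacrine sets. The horizontal cell list summed to 145 CPM (126 to 187 in the pieces, UMIs in 125 nuclei), above the 20.8, 109 and 44.7 CPM of the interneuron sets. Calb1 of that list, with 124 UMIs in 43 RGC nuclei, is also among the RGC type markers used below. That part of the sum is therefore not specific to horizontal cells, and the rest came from other members of the list. The starburst amacrine list summed to 54.7 CPM (21.9 to 98.3 in the pieces), against 912, 83.3 and 61.6 CPM. Within these and other lists, single defining genes were at 0 UMIs in RGC nuclei: Pde6c of cones, Lhx1 of horizontal cells, Sox2 of starburst amacrine cells, Lrat of RPE, C1qc of microglia, Cldn5 and Cdh5 of endothelium and Mog of oligodendrocytes. The astrocyte list summed to 266 CPM, of which 257 CPM was Aldoc, against 142, 124 and 80.7 CPM in the interneuron sets. The cone, RPE, microglial, endothelial and oligodendrocyte lists summed to 7.70, 14.5, 5.56, 5.56 and 37.6 CPM in RGC nuclei. The part of free RNA or doublets in these levels was not tested.

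**Figure D1:**
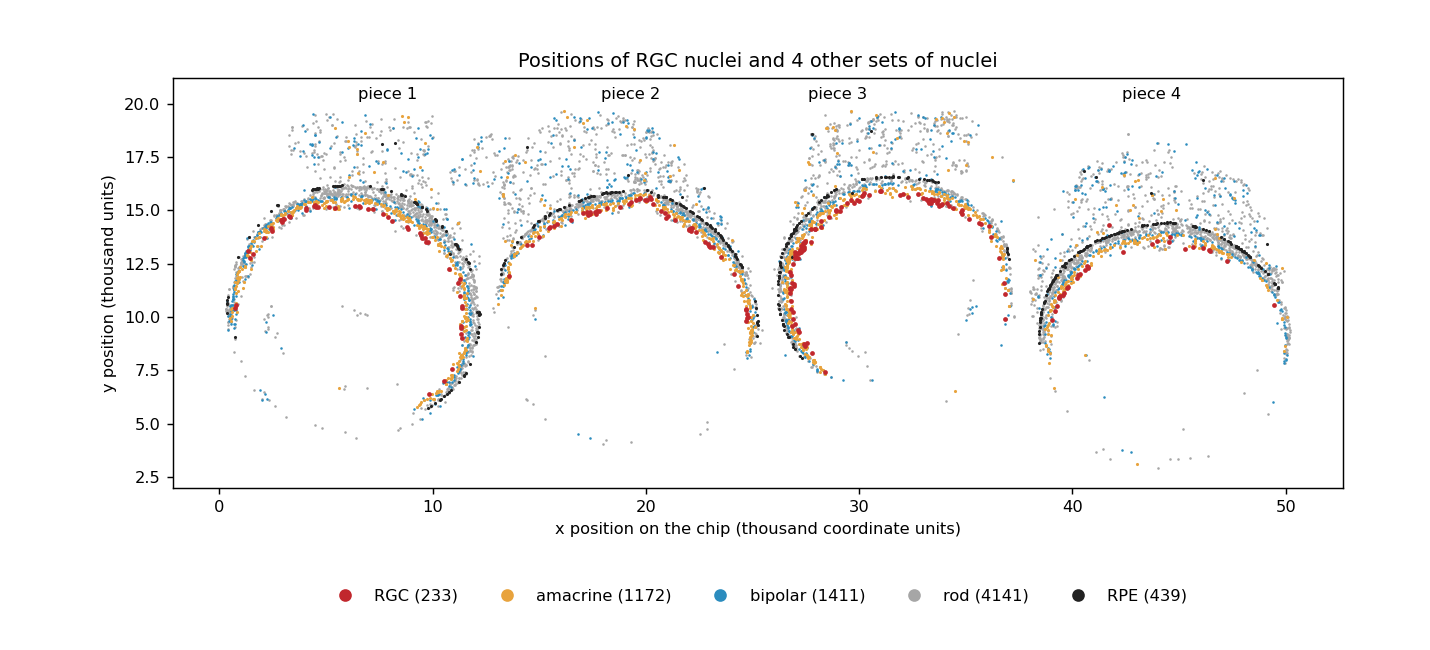
Positions of RGC (233), amacrine (1172), bipolar (1411), rod (4141) and RPE (439) nuclei on the chip, with both axes in coordinate units and pieces 1 to 4 labelled. RGC nuclei lined the inner side of each ring, inside the ring of RPE nuclei, and were most numerous in piece 3 (97).

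RGC nuclei were then compared with the interneurons across all genes. A gene was called higher when the lower bound of its interval in RGC nuclei was at least 2 times the upper bound in each of the 3 interneuron sets, with at least 20 UMIs behind it, and called lower by the reverse. Of 10840 genes tested, 272 were called higher (2.51%) and 205 lower (1.89%). The 24 genes that define the sets were left out. The median log2 ratio of RGC nuclei to the mean of the 3 sets was -0.04 over all tested genes, after adding 1 CPM to each level. Thinned to 2000 UMIs per nucleus, 136 genes were higher and 40 lower, and with at least 3 times between bounds 137 were higher and 94 lower. Against 1 set at a time, 442 of 12096 genes were higher than in GABAergic amacrine nuclei (3.65%), 648 of 11109 than in glycinergic amacrine nuclei (5.83%) and 1176 of 12590 than in bipolar nuclei (9.34%). Lower calls numbered 611 (5.05%), 762 (6.86%) and 1189 (9.44%). The fewest calls in both directions were made against GABAergic amacrine nuclei.

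The axonal cytoskeleton was the functional group with most genes called higher. Of its 19 members, all of which were tested, 9 were higher (against 2.51% of all tested genes) and 0 lower, with a median log2 ratio of 2.32. Among the 9, Nefm, Nefl, Nefh, Tubb3 and Stmn2 are also in the list of known RGC markers below. The neurofilament genes led. Nefm, the medium subunit, stood at 472 CPM (444 to 500) in RGC nuclei, against 8.52, 1.60 and 1.83 CPM in GABAergic amacrine, glycinergic amacrine and bipolar nuclei. Nefh, the heavy subunit of thick myelinated axons, stood at 216 CPM (198 to 236), against 34.3, 3.59 and 5.32 CPM. Ina, which encodes alpha-internexin, stood at 212 CPM (194 to 232), against 42.4, 36.3 and 31.9 CPM. The nearest set was GABAergic amacrine for all 4 genes, with Nefl 38.8-fold, Nefm 55.3-fold and Nefh 6.29-fold above it. Nefh was uneven among RGC nuclei: 123 of 233 held a UMI and 1 nucleus held 76 of its 505.

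Microtubule and transport genes were higher too. Tubb3, a neuronal beta-tubulin, stood at 230.5 CPM, against 25.4, 31.5 and 10.3 CPM. Map1b, a microtubule-associated protein of growing and mature axons, was found in all 233 RGC nuclei, at 2123 CPM (2065 to 2183), against 532, 187 and 319 CPM. The motor gene Kif5a, whose kinesin carries cargo down axons, stood at 695 CPM, against 205, 122 and 82.1 CPM. Stmn2 and Stmn3, which encode tubulin-binding stathmins, stood at 263 and 233 CPM, 4.59-fold and 3.51-fold above the GABAergic amacrine set, the highest of the 3 for both.

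The wider list of RGC markers held 18 genes. Its 16 members outside the rule were all tested, and 14 were higher (against 2.51% of all tested genes), with a median log2 ratio of 3.87. This list was made from genes known as RGC markers, so its direction is a check of the label. It shares called genes with other lists: 5 axonal genes named above, Scn4b of the sodium channel list, and Chrna6 and Chrnb3 of the nicotinic list. Calls of these genes in those lists are the same calls and not separate findings. Sncg, gamma-synuclein, stood at 212 CPM (194 to 231), against 5.46, 4.39 and 2.38 CPM. Rbpms2, the paralogue of Rbpms, stood at 269 CPM (249 to 291), against 5.46, 5.18 and 3.30 CPM, and reads shared with Rbpms could not be checked. Nrn1, a secreted neurite growth factor, stood at 227 CPM (208 to 247), against 3.06, 0.798 and 0.550 CPM. Uchl1, a ubiquitin hydrolase abundant in neurons, stood at 322 CPM, against 66.0, 21.9 and 11.6 CPM, and Tppp3, a tubulin polymerisation factor, at 132 CPM, against 9.40, 8.37 and 5.50 CPM. The members not called were Gap43, a growth cone protein gene, at 124 CPM against 53.8, 11.2 and 7.33 CPM, and the nicotinic subunit gene Chrnb2, at 92.8 CPM against 48.1, 40.7 and 23.8 CPM. Both levels were above every interneuron set, short of the 2 times between bounds.

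**Figure D2:**
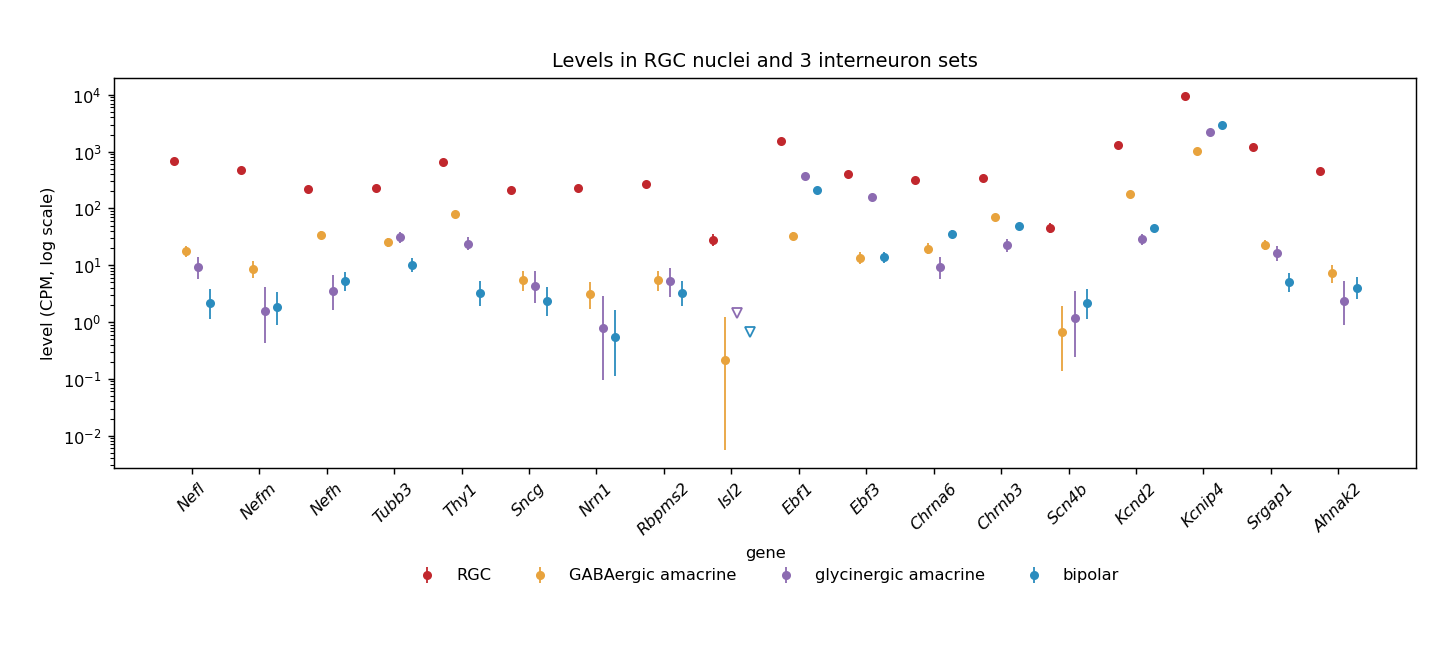
Levels of 18 genes in RGC, GABAergic amacrine, glycinergic amacrine and bipolar nuclei, in CPM on a log axis with exact Poisson 95% intervals; open triangles mark the upper bound where a set had 0 UMIs. All 18 were called higher in RGC nuclei, with Kcnip4 at 9512 CPM the highest and Isl2 at 27.8 CPM the lowest in RGC nuclei.

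Among the 18 RGC identity factors, 11 could be tested, 3 belong to the rule and 4 had too few UMIs (Atoh7, Dlx1 and Dlx2 were at 0). Higher levels were called for 4 (against 2.51% of all tested genes), and 0 were lower, with a median log2 ratio of 0.62. Isl2, which marks RGCs after they leave the cell cycle, stood at 27.8 CPM (21.5 to 35.4) from 65 UMIs in 52 nuclei, against 0.219 CPM in GABAergic amacrine nuclei and 0 UMIs in both other sets. Isl1, its relative that bipolar and starburst cells also use, stood at 91.9 CPM, against 65.4, 30.3 and 225 CPM, and was not called. The pair therefore differed in how far each separated RGC from bipolar nuclei. Ebf1 and Ebf3, helix-loop-helix factors of early neuronal differentiation, stood at 1561 CPM (1511 to 1613) and 396 CPM (371 to 422). Their nearest set was glycinergic amacrine, at 378 and 156 CPM. Klf7, a zinc finger factor tied to axon growth, stood at 258 CPM, against 84.8, 79.4 and 65.5 CPM.

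The 15 leading genes, ranked by the lower bound in RGC nuclei over the highest upper bound of the interneuron sets, held both known markers and little described transcripts. Nrn1, Nefm, Nefl, Rbpms2, Sncg and Spp1 were among them. Srgap1, which encodes a GTPase-activating protein acting downstream of Slit and Robo, stood at 1214 CPM (1170 to 1259), against 22.5, 16.3 and 5.13 CPM, and was found in 227 of 233 nuclei. After thinning it was found in 82.8% of RGC nuclei, against 3.62% of GABAergic amacrine nuclei. Ahnak2, a large scaffold protein gene, stood at 464 CPM (437 to 493), against 7.21, 2.39 and 4.03 CPM, in 218 nuclei. These 2 were found in nearly every RGC nucleus, as Map1b was. Rgs4, a regulator of G protein signalling, stood at 146 CPM in 117 nuclei, against 2.84, 2.79 and 1.28 CPM.

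Transcripts without a named protein led this ranking of bounds. By the levels themselves, Isl2 (127-fold) and Opn4 (86.3-fold), with few UMIs and wide intervals, stood farther above their nearest set than D130079A08Rik (80.1-fold). D130079A08Rik stood at 420 CPM (394 to 448) in 152 nuclei, against 5.25, 1.20 and 2.02 CPM. 6330411D24Rik stood at 1293 CPM (1247 to 1340) in 174 nuclei with up to 126 UMIs in a nucleus, against 22.7, 5.58 and 6.05 CPM. Both were abundant in part of the nuclei and missing in the rest, unlike Srgap1. Trarg1 (204 CPM, 127 nuclei), Stk32a (145 CPM, 92 nuclei), Hydin (84.7 CPM, 58 nuclei) and Ccdc192 (44.9 CPM, 26 nuclei) completed the 15.

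Genes for firing and conduction were called in some members of their lists, beside 2.51% higher and 1.89% lower over all tested genes. Of 21 sodium channel and axon initial segment genes, all tested, 3 were higher, with a list median log2 ratio of 1.36. Scn2a, a pore-forming sodium channel subunit, stood at 359 CPM, against 150, 133 and 88.2 CPM. Cntn2, a contactin of the region beside the node, stood at 115 CPM, against 26.0, 11.6 and 2.38 CPM. Scn4b, an accessory subunit, stood at 45.8 CPM (37.5 to 55.3), against 0.656, 1.20 and 2.20 CPM, but in only 31 nuclei. Scn2a by contrast was found in 214. Scn1a stood at 592 CPM, against 168, 416 and 24.4 CPM, and was not called because of the glycinergic amacrine nuclei.

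Of 22 potassium and HCN channel genes, all tested, 3 were higher, with a median log2 ratio of 0.46. Over all tested genes, 2.51% were higher and 1.89% lower. Kcnd2, which encodes the Kv4.2 subunit of A-type channels, stood at 1316 CPM (1270 to 1363), against 177, 28.7 and 44.7 CPM. Kcnip4, its cytosolic partner, stood at 9512 CPM (9388 to 9638), 3.29-fold above bipolar nuclei, the highest interneuron set. Kcna2, a Kv1 subunit of axons, stood at 338 CPM, against 123, 99.3 and 21.1 CPM. A pore subunit and its partner were thus both higher. Kcnma1, the large-conductance calcium-activated channel, ran the other way without being called, at 958 CPM, 0.557 of its level in GABAergic amacrine nuclei. Of 15 calcium channel genes, 0 were higher and 1 was lower, with a median log2 ratio of -0.35. That was Cacna2d4, an auxiliary subunit of photoreceptor and bipolar terminals, at 31.2 CPM in RGC nuclei and 132 and 360 CPM in GABAergic and glycinergic amacrine nuclei.

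Transmitter release genes were compared with the same 3 interneuron sets, of which bipolar nuclei are the glutamatergic one. Of 15 members, 13 were tested and 3 were higher (against 2.51% of all tested genes), with a median log2 ratio of 0.89. Cplx1, a complexin of conventional synapses, stood at 292 CPM, against 31.9, 25.1 and 5.87 CPM. Syt2, a fast calcium sensor, stood at 272 CPM, against 7.87, 10.8 and 52.6 CPM, and Vamp1, a vesicle SNARE, at 156 CPM, against 25.4, 27.5 and 30.1 CPM. These 3 belong to fast conventional release. Slc17a7, the vesicular transporter of photoreceptors and bipolar cells, stood at 11.1 CPM, against 33.7, 85.3 and 396 CPM. Cplx3, a complexin of ribbon synapses and some amacrine cells, was called lower, at 5.13 CPM against 116, 181 and 142 CPM.

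Receptor genes for the signals that RGCs receive gave 1 or 2 calls per list. Over all tested genes, 2.51% were called higher and 1.89% lower. Median log2 ratios were -0.05 for ionotropic glutamate receptors, -0.37 for GABA and glycine receptors and 2.06 for nicotinic receptors. Of 18 ionotropic glutamate receptor genes, 16 were tested and Grik3, a kainate receptor subunit, was called higher, at 184 CPM against 66.2, 69.4 and 13.8 CPM. Grin2a, an NMDA receptor subunit, stood at 798 CPM (763 to 836), 1.87-fold above GABAergic amacrine nuclei and without a call, while bipolar nuclei had 1.47 CPM. Of 21 GABA and glycine receptor genes, 19 were tested, 0 were higher and 2 were lower. Those were the GABA-C subunits Gabrr1 and Gabrr2, at 2.57 and 8.13 CPM in RGC nuclei and 266 and 596 CPM in bipolar nuclei, whose terminals carry such receptors. Among 10 nicotinic receptor genes, 6 were tested and 2 were higher, both of them also in the list of known RGC markers. Chrna6 stood at 315 CPM (292 to 338), against 19.7, 9.17 and 35.9 CPM, and Chrnb3, its neighbour subunit in a receptor found on RGC axons, at 341 CPM (318 to 365), against 69.3, 22.7 and 49.3 CPM. Gjd2, the connexin 36 gene, stood at 32.1 CPM, against 33.7, 221 and 73.0 CPM, and 0 of the 4 tested electrical synapse genes were called.

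Axon guidance receptors were tested for 22 of 23 members, with a median log2 ratio of 0.28. Of these, 4 were higher (against 2.51% of all tested genes) and 0 lower. Nrp1, a semaphorin and VEGF co-receptor, stood at 224 CPM (205 to 244), against 16.0, 47.9 and 26.4 CPM. The adhesion molecule gene L1cam stood at 299 CPM, against 110, 52.6 and 10.3 CPM, and its relative Chl1 at 41.1 CPM, against 10.9, 4.79 and 5.68 CPM. Epha6, a receptor of ephrin-A ligands that guide the retinotectal map, stood at 646 CPM, against 191, 257 and 10.5 CPM. Robo1, a Slit receptor, stood at 243 CPM, against 1634, 151 and 25.1 CPM, and was not called. Dcc, the netrin receptor, was close to level in all sets, at 1358 CPM in RGC nuclei.

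Survival, injury and disease genes showed few calls, as did all tested genes (2.51% higher, 1.89% lower). With so few tested members per list, these counts cannot be told from that share. Median log2 ratios were 0.40 for axon injury and survival, 0.07 for inherited optic neuropathy and -0.45 for trophic factor receptors. Of 24 axon injury and survival genes, 14 were tested and 0 were called in either direction. Nmnat2, the axonal NAD-synthesising enzyme whose loss starts axon degeneration, stood at 352 CPM, against 194, 194 and 81.2 CPM. Map3k13, which encodes the injury kinase LZK, stood at 119 CPM, against 162, 135 and 192 CPM. Of the regeneration genes, Atf3 had 1 UMI in the 233 nuclei, and Sprr1a, Ecel1 and Klf4 had 0. A total of 0 in 2338168 UMIs allows at most 1.58 CPM. Among 15 inherited optic neuropathy genes, 13 were tested and 0 were called. Dnm1l and Opa1, which serve mitochondrial fission and fusion, stood at 150 and 99.2 CPM, 1.66-fold and 1.17-fold above the nearest interneuron set. Of 16 trophic factor receptor genes, 15 were tested and 1 was lower, the VEGF receptor gene Kdr, at 2.14 CPM against 53.3, 213 and 52.8 CPM. Ntrk2, the receptor of BDNF, stood at 429 CPM, against 443, 481 and 404 CPM, and did not separate RGC nuclei from any set. Immediate early genes, which rise with activity and with tissue handling, were led by Nr4a1 at 58.6 CPM and Egr1 at 40.6 CPM, and 0 of 4 tested members were called.

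Genes lower in RGC nuclei than in every interneuron set included Prkg1, the cGMP-dependent kinase, at 96.7 CPM, 0.0556 of its level in GABAergic amacrine nuclei, where it was lowest. Nckap5 stood at 15.8 CPM, against 302, 1279 and 524 CPM. Trpc4, a cation channel, stood at 3.42 CPM, against 174, 96.5 and 99.2 CPM. Prkca, the protein kinase C that marks rod bipolar cells, stood at 230.1 CPM in RGC nuclei and was lower than in every set. In the marker lists of other cell types only a part could be tested, since genes that define the sets were left out. Of those tested, 2 of 3 rod and cone genes (Arr3, Pde6c) and 2 of 5 amacrine genes (Megf10, Sox2) were lower. So were 2 of 4 bipolar and horizontal genes (Prkca, Otx2) and 4 of 9 glial and vascular genes (Flt1, Slc1a3, Aqp4, Glul), and 0 were higher. Over all tested genes, 1.89% were lower. The horizontal cell and astrocyte sums given above nevertheless stood above every interneuron set.

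How far RGC nuclei differed among themselves was read from the variance of each gene. It was measured as that of Pearson residuals, which takes out depth and counting noise, and its median was 1.12 over the 10896 genes detected in at least 5% of RGC nuclei. Kcnip4 had the highest, 32.6, with a median of 80 and a maximum of 439 UMIs per nucleus and 10 nuclei at 0. Kirrel3, a synaptic adhesion gene, followed at 21.6, with 145 nuclei at 0 and up to 260 UMIs in a nucleus. The other 8 were Nrg1, Pcdh9, Galntl6, Kcnd2, Lrrc4c, Sdk1, 6330411D24Rik and Asic2, with values from 16.0 for Asic2 upward. Of these, Kcnd2 had 65 nuclei at 0 and up to 119 UMIs. A gene called higher in the pool of RGC nuclei could thus be at 0 UMIs in part of them.

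Transcription factors of RGC types were detected in parts of the population. Of 22 such factors 19 were tested, with a median log2 ratio of 2.16. Higher levels than in every interneuron set were called for 8 (against 2.51% of all tested genes), Irx4, Irx2, Foxp2, Tbx20, Irx3 and Tfap2d among them. Foxp2, which with Foxp1 marks the F-RGC types, stood at 92.8 CPM, against 8.31, 14.4 and 16.1 CPM. Tfap2d stood at 67.6 CPM, against 22.7, 0.399 and 0 CPM in GABAergic amacrine, glycinergic amacrine and bipolar nuclei. After thinning, a Foxp2 UMI was found in 12.9% of RGC nuclei, against 0.975, 1.89 and 1.61%. A Meis2 UMI was found in 18.5% of thinned RGC nuclei, against 62.3, 8.25 and 16.3%, so it was commonest in GABAergic amacrine nuclei.

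At 2 or more UMIs, Foxp1 was found in 133 RGC nuclei (57.1%). Satb1 followed with 52 (22.3%), Meis2 with 51 (21.9%), Bnc2 with 48 (20.6%), Foxp2 with 36 (15.5%), Tfap2d with 32 (13.7%) and Bcl11b with 21 (9.01%). Rarer factors included Irx4 in 15 nuclei, Tbr1 and Prdm8 in 10 each, Irx2 in 8, Irx3 in 7, and Eomes and Tbx20 in 6 each. No factor reached every nucleus, and these counts fall with depth.

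Markers of single types were tested for 27 of 40 members, with 6 called higher (against 2.51% of all tested genes) and a median log2 ratio of 0.65. Spp1, the osteopontin gene of alpha RGCs, stood at 52.2 CPM (43.3 to 62.3), against 0.219, 0.399 and 0.917 CPM, from 25 nuclei. Opn4, melanopsin of the intrinsically photosensitive RGCs, stood at 15.8 CPM (11.1 to 21.8), with 0 UMIs in both amacrine sets and 0.183 CPM in bipolar nuclei. Its 37 UMIs came from 12 nuclei, 4 of them with 2 or more and 1 with 14. Adcyap1, the PACAP peptide gene of the same cells, stood at 22.2 CPM (16.6 to 29.2) from 42 nuclei. Calb2, calretinin, was the most widespread member, with 2 or more UMIs in 182 nuclei and 892 CPM, against 184, 51.8 and 3.67 CPM. Pvalb, parvalbumin, had 2 or more UMIs in 41 nuclei and stood at 88.5 CPM, against 4.81, 8.37 and 4.03 CPM. Markers that were found at 2 or more UMIs without a call included Jam2 (62 nuclei), Fstl4 (61), Igf1 (48), Cartpt (43), Syt6 (42), Cdh6 (39) and Col25a1 (30). Nts, a neuropeptide gene, had 0 UMIs.

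These 7 commoner factors overlapped unevenly. Of 36 with Foxp2, 28 also held Foxp1 (77.8%), which was 21.1% of the Foxp1 nuclei. At this cut of 2 UMIs, Foxp2 shared 0 nuclei with Tfap2d, a factor found in 13.7% of all RGC nuclei. Below the cut some nuclei held both, such as 1 with 19 Foxp2 UMIs and 1 Tfap2d UMI, and 1 with 1 and 4. Of 32 with Tfap2d, 20 also held Foxp1 (62.5%), a factor found in 57.1% of all RGC nuclei, and 19 also held Satb1 (59.4%), found in 22.3% of all. Meis2, found in 21.9% of all, was held by 14 (43.8%), and Bcl11b, found in 9.01% of all, by 10, as was Bnc2, found in 20.6% of all. These 10 were 47.6% of the Bcl11b nuclei and 20.8% of the Bnc2 nuclei.

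**Figure D3:**
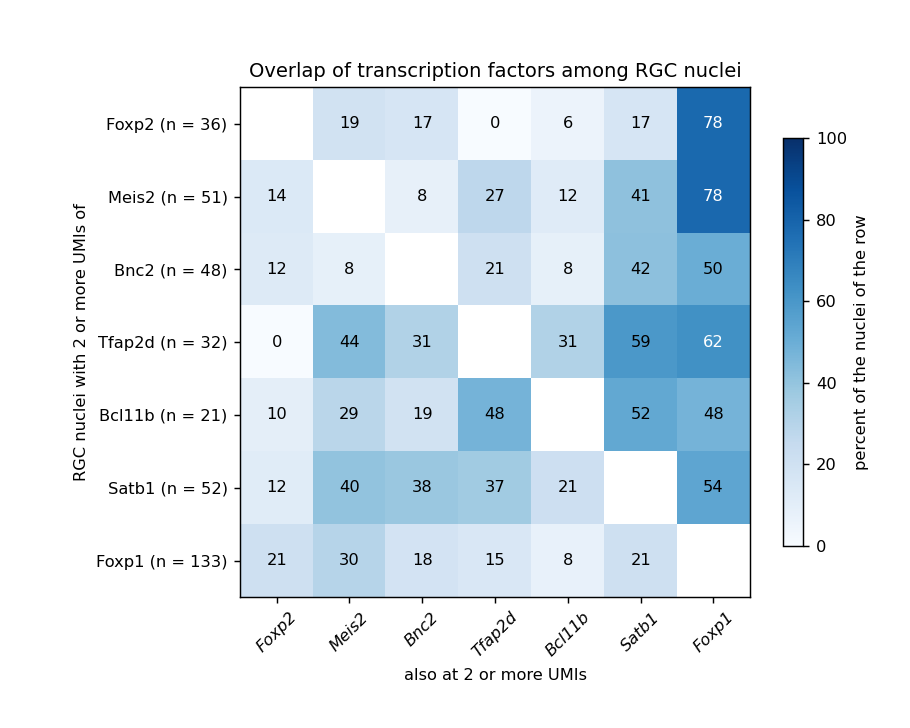
Overlap of 7 type factors in 233 RGC nuclei, each counted at 2 or more UMIs; a cell gives the percent of the nuclei with the row's factor that also hold the column's factor. The Foxp2 row reaches 77.8% under Foxp1 and is at 0 under Tfap2d.

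The other genes of nuclei with each factor were then set against those of nuclei without it, by the same rule on bounds over 9832 genes. Foxp2 gave the most higher genes of the 7 factors: 43 were higher in its 36 nuclei (0.437%) and 50 lower (0.509%), at a median depth of 8037 UMIs with it and 9393 without. Several glutamate receptor genes were among them. Gria1, an AMPA receptor subunit, stood at 1065 CPM (952 to 1188) in nuclei with Foxp2 and 78.1 CPM (66.4 to 91.2) in nuclei without it, and 30 of the 36 held 2 or more UMIs. Grin3a, an NMDA receptor subunit, stood at 466 CPM with it and 58.5 CPM without, and Grik3 at 658 CPM with it and 113 CPM without. Grin2a ran the other way, at 86.0 CPM (56.2 to 126) in nuclei with Foxp2 and 904 CPM in nuclei without it. The receptor subunits of Foxp2 nuclei therefore differed from the rest in both directions, and 199 of the 430 Grik3 UMIs of all RGC nuclei lay in them.

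Further genes followed Foxp2. Pde1a, a calcium-dependent phosphodiesterase, stood at 222 CPM (172 to 281) in nuclei with Foxp2 and 6.88 CPM in nuclei without it, in 14 of the 36 at 2 or more UMIs. D130079A08Rik, which led the ranking over all RGC nuclei, stood at 1290 CPM with it and 291 CPM without and reached 2 UMIs in 35 of the 36. Foxp1 stood at 761 CPM with it and 232 CPM without. Kirrel3 had 19.8 CPM with Foxp2 and 948 CPM without it, and the sulfotransferase gene Hs3st4 3.31 CPM with it and 219 CPM without. Spp1 had 0 UMIs in nuclei with Foxp2, against 122 UMIs in the others.

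Tfap2d nuclei stood on the other side for several of these genes. In the 32 nuclei with Tfap2d, 17 genes were higher (0.173%) and 27 lower (0.275%), at median depths of 11708.5 UMIs with it and 8541 without. Cartpt, a peptide precursor found in ON-OFF direction-selective RGCs, stood at 562 CPM (493 to 638) with Tfap2d and 83.0 CPM (70.6 to 97.0) without, in 21 of the 32 at 2 or more UMIs. Nrg1, neuregulin 1, stood at 2273 CPM with it and 810 CPM without, Hs3st4 at 519 CPM with it and 119 CPM without, and Bcl11b at 113 CPM with it and 24.5 CPM without. Col25a1 stood at 215 CPM with it and 62.7 CPM without. Gria1 was lower, at 30.7 CPM with Tfap2d and 244 CPM without. Cartpt was also higher in Satb1 nuclei, at 390 CPM with it and 85.7 CPM without, where 5 genes in all were higher (0.0509%) and 13 lower (0.132%), and in Bcl11b nuclei, at 549 CPM with it and 126 CPM without, where 13 were higher (0.132%) and 10 lower (0.102%). These 3 factors share nuclei, so the 3 values are not separate observations.

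Bnc2 and Meis2 nuclei stood on opposite sides for several genes. In the 48 nuclei with Bnc2, 28 genes were higher (0.285%) and 48 lower (0.488%), at median depths of 9769 UMIs with it and 8883 without. Mmp9, a secreted matrix metalloprotease, stood at 176 CPM (141 to 216) with Bnc2 and 12.6 CPM without, in 16 of the 48 at 2 or more UMIs. The cadherin gene Cdh6 stood at 373 CPM with it and 52.0 CPM without, and Col25a1, a membrane collagen gene, at 244 CPM with it and 47.1 CPM without. Meis2 stood at 60.5 CPM with it and 257 CPM without, and the glycine receptor gene Glra1 at 3.91 CPM with it and 120 CPM without. In the 51 nuclei with Meis2, 39 genes were higher (0.397%) and 52 lower (0.529%), at median depths of 10230 UMIs with it and 8721 without. Glra1 there stood at 278 CPM (238 to 323) with Meis2 and 29.0 CPM without, in 27 of the 51, and Tbr1, a T-box factor of J-RGCs and related types, at 55.3 CPM with it and 5.80 CPM without in 9. Bnc2 stood at 24.4 CPM with it and 172 CPM without, and the GABA receptor subunit gene Gabrg3 at 53.7 CPM with it and 689 CPM without.

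Foxp1 gave 13 higher (0.132%) and 2 lower (0.0203%) genes, the smallest lower count of the 7, with Meis2 at 282 CPM in nuclei with Foxp1 and 104 CPM in nuclei without it. These splits divide the same 233 nuclei by a detected transcript, so nuclei of a type that missed the transcript lie on the other side, and the split was not repeated in another library.

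Position was measured as the mean distance to the 5 nearest RPE nuclei of the same piece and is given in coordinate units of unstated length. The median was 783 units for RGC nuclei (5th to 95th percentile 535 to 1504), against 688 for GABAergic amacrine, 663 for glycinergic amacrine, 666 for bipolar and 497 for rod nuclei. RGC nuclei lay farthest from the RPE in each piece, at medians of 1018, 699, 805 and 808 units in pieces 1 to 4, while GABAergic amacrine nuclei had 845, 577, 629 and 627. The rule used no position. RPE nuclei were missing along parts of the rings, such as piece 3 between x positions 33686 and 36940. Distances there reached 3111 units for an RGC nucleus, so they depend on such gaps as well as on depth. The other sets kept no single order: in piece 3 the rod median of 706 lay beyond the GABAergic amacrine (629), glycinergic amacrine (596) and bipolar (553) medians. The upper quartiles of bipolar (1340) and rod (1236) nuclei also lay beyond that of RGC nuclei (974), so the medians do not describe the farthest nuclei. Of the 233 nuclei, 42 lay nearer the RPE than the median amacrine nucleus of their piece (13, 10, 16 and 3 in pieces 1 to 4).

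**Figure D4:**
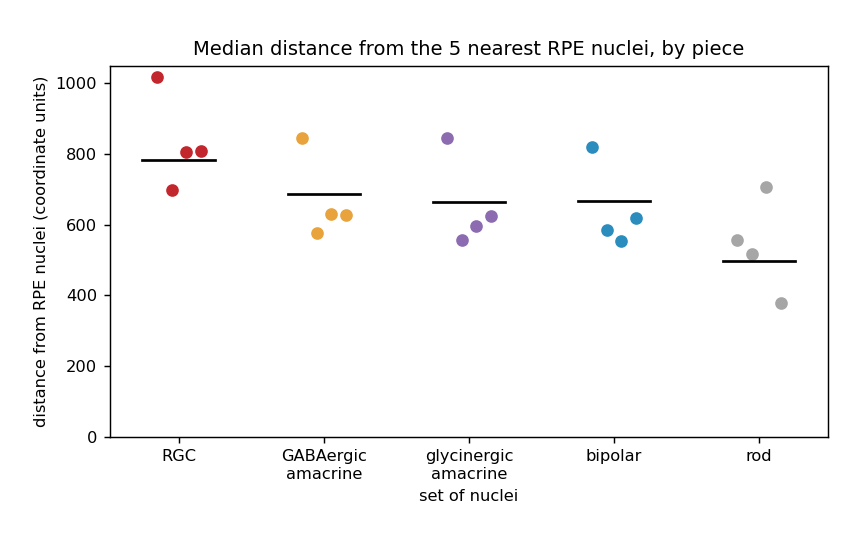
Distance from the RPE of RGC, GABAergic amacrine, glycinergic amacrine, bipolar and rod nuclei, in coordinate units; points are the medians of pieces 1 to 4 and the line is the median over all nuclei. The RGC median of 783 is the highest of the 5 sets, and in piece 3 the rod median (706) lies above those of the interneurons.

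Neighbours were counted next. Among the 20 nearest nuclei of an RGC nucleus, 11.4% were RGC nuclei, 8.25 times their share of all kept nuclei (5.48 to 11.2 times in the pieces). Amacrine nuclei made up 21.9%, 3.16 times their share (2.36 to 5.19), with 3.58 times for GABAergic and 2.46 times for glycinergic nuclei. Bipolar, rod and RPE nuclei were scarcer than their share, at 0.711, 0.395 and 0.0165 times. The nearest other RGC nucleus lay at a median of 127 units (18.9 to 3031), and for 89 nuclei under 100 units. RGC nuclei thus had one another and GABAergic amacrine nuclei nearby more often than glycinergic ones, as a description of this chip.

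RGC nuclei were unevenly spread over the pieces, with 51, 55, 97 and 30 in pieces 1 to 4, or 1.16, 1.31, 2.63 and 0.656% of kept nuclei. As a share of RGC and amacrine nuclei together, which leaves out how much outer retina a piece holds, they made up 12.8% (9.64 to 16.4), 16.0% (12.3 to 20.4), 21.6% (17.8 to 25.6) and 14.2% (9.76 to 19.6). The interval of piece 3 lay above that of piece 1 and overlapped those of pieces 2 and 4. Median depth of RGC nuclei was similar, at 8249, 9501, 9262 and 9008 UMIs. Sectioning position, RGC number and recovery of nuclei cannot be told apart in these shares.

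Across the pieces, 27 of 9833 genes were called within RGC nuclei (0.275%), by a lower bound in the highest piece at least 2 times the upper bound in the lowest. The looser member rule gave 42 and thinning gave 2. Of the 27, 12 were highest in piece 4, 6 in piece 1, 6 in piece 2 and 3 in piece 3. With the nucleus holding most of a gene's UMIs left out, an alternative chosen after seeing the data, 9 of the 27 remained: Xist, Gpc5, Il1rapl2, Smoc1, Kirrel3, Tmeff2, Uty, Dab1 and AC149090.1. Xist had the largest ratio, at 11.9, 3.51, 3.95 and 472 CPM in pieces 1 to 4, and was found in 27 of 30 RGC nuclei of piece 4, against 4 of 51, 2 of 55 and 3 of 97. Uty, a Y-linked demethylase-like gene, stood at 65.7, 89.6, 76.0 and 7.87 CPM. The Xist level of rod nuclei in the same pieces was 66.7, 90.9, 85.7 and 737 CPM, so rods in pieces 1 to 3 held more than RGC nuclei there. Over all pieces, Xist stood at 56.4 CPM in RGC nuclei, against 163, 213 and 329 CPM in the interneuron sets, and was called lower, while piece 4 held 12.9% of RGC nuclei. Within piece 4 alone it was also lower in RGC nuclei, at 472 CPM (392 to 565), against 996 CPM in amacrine and 1102 CPM in bipolar nuclei. RGC nuclei had the lowest level of these in pieces 1 to 3 too, with intervals that overlapped those of amacrine nuclei in piece 1.

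Several other genes that differed between pieces came from few nuclei. Gpc5, a glypican gene, stood at 112, 0, 68.1 and 15.7 CPM and came from 8, 0, 14 and 2 nuclei. Il1rapl2, an X-linked synaptic receptor gene found mainly in a few nuclei, stood at 195, 42.1, 137 and 3.94 CPM from 8, 7, 12 and 1 nuclei. Kirrel3 stood at 295, 1252, 861 and 795 CPM, from 13, 24, 40 and 11 nuclei. With 30 to 97 nuclei per piece, the types captured and the level per nucleus cannot be told apart in such values. Nefh stood at 398, 209, 156 and 110 CPM, but 1 nucleus held 76 UMIs and the call was lost without it. The higher Opn4 level of piece 4 rested on 1 nucleus with 14 UMIs. The remaining genes among the 10 with the largest ratio were Sntb1, Smoc1, Ptgds, Neto1 and Adarb2, of which Smoc1, a matrix protein gene, stood at 1.99, 14.0, 38.5 and 74.8 CPM.

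Some genes with large differences between the rod nuclei of the pieces were not called between the RGC nuclei of the pieces. B3galt1, a galactosyltransferase gene, stood at 504, 439, 549 and 551 CPM in RGC nuclei of pieces 1 to 4, and at 179, 730, 811 and 173 CPM in rod nuclei. Nav1, a microtubule plus-end protein gene, stood at 432, 437, 448 and 370 CPM in RGC nuclei, and at 264, 702, 695 and 248 CPM in rod nuclei. Myo5b, a myosin motor gene, stood at 227, 225, 162 and 189 CPM in RGC nuclei, and at 74.8, 283, 295 and 81.6 CPM in rod nuclei. In rods pieces 2 and 3 were high and pieces 1 and 4 low for all 3. RGC nuclei lacked this order, and so did amacrine nuclei for B3galt1, between 632 and 704 CPM in the pieces, and for Nav1, between 572 and 648 CPM. These 3 were chosen for how they vary by position in rods, and the difference between cell types was not tested.

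**Figure D5:**
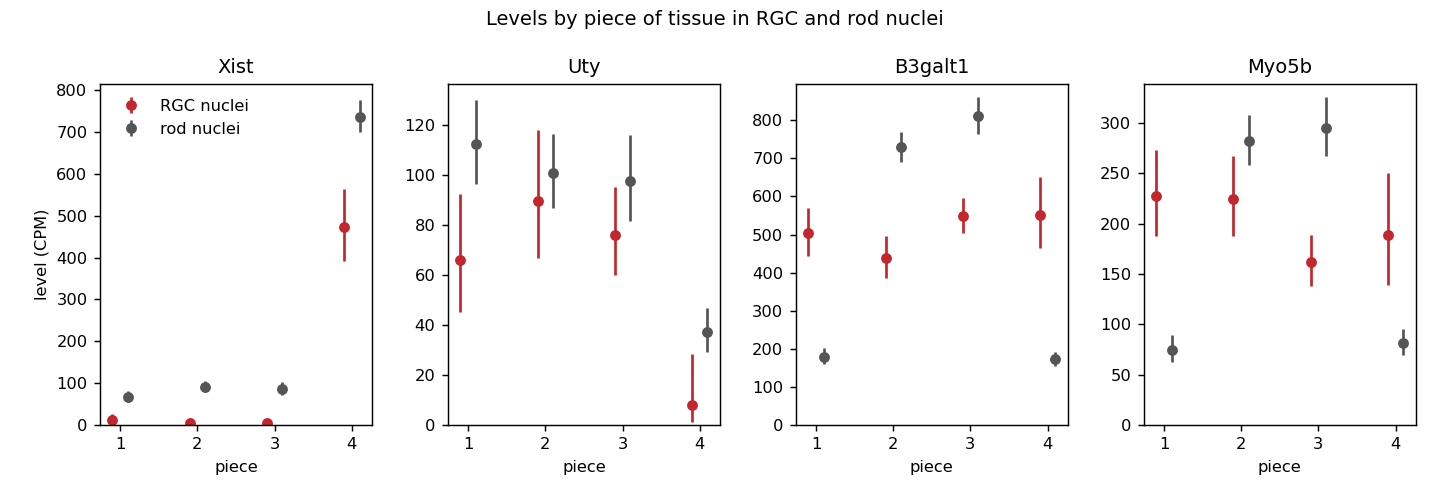
Levels of Xist, Uty, B3galt1 and Myo5b in RGC nuclei (left) and rod nuclei (right) of pieces 1 to 4, in CPM with exact Poisson 95% intervals. Xist is high in piece 4 in both, while B3galt1 varies between 173 and 811 CPM in rods and between 439 and 551 CPM in RGC nuclei.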

How the data were processed

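As deposited, the expression file gives raw counts of UMIs per gene and barcode, without normalisation, and the deposited coordinates give each barcode a place on the chip in other units of unstated length. Per the submitters' processing notes, fastp, STAR and Seurat (4.1.1) were used with mm10, in roles the notes leave out. Annotation, strand, intron counting and cell calling were not given in the sources used here, so overlapping and antisense genes (Vax2 with its antisense neighbour) are uncertain. Gene positions and promoters came from RefSeq's tables for GRCm38.p6, matched by symbol.

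Computation used scipy 1.17.1, numpy 2.4.6, scanpy 1.11.5, pandas 2.3.3, matplotlib 3.10.9 and scikit-learn 1.9.0 under python 3.11.15. The members, the 24 gene lists (395 genes) and the rules were chosen with earlier results of these data known. Both samples stayed unassigned. Interneuron, rod and RPE sets were built from counts of defining genes (Gad1, Gad2 or Slc6a9 with Tfap2a or Tfap2b, and bipolar, rod and Rpe65 genes). Interneuron sets held no nucleus with a Slc17a6 UMI. Rod nuclei held no UMI of the identity genes or of Gad1, Gad2 and Slc6a9. The 8 barcodes that met more than 1 set were left out. The doublet caller Scrublet marked 0 nuclei (upper limit 0.0178%, from 3 counts) and was taken as not having worked, so doublets remain. Pieces were to come from k-means with 4 centres, which split a ring and put 16 of 233 RGC nuclei (1207 of 16867 kept nuclei) in another piece; the pieces used link nuclei within 400 units with at least 10 links, and 757 nuclei, 0 of them RGC nuclei, went to the nearest piece. The calling rule was checked on simulated counts with Poisson noise only. These had no spread between nuclei, so the check does not cover calls that rest on single nuclei. Named genes are the markers given, up to 4 list members called higher and 2 called lower per list or else its 2 highest, type factors and markers with at least 20 UMIs, the 15 largest ratios, the 10 largest ratios between pieces and the 10 largest residual variances; genes named beyond these in the text were chosen after their values were seen. Results for some genes of the lists are not reported here. Alternatives were other member rules, filters, thinning, folds, minimums, piece definitions and leaving out each piece.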

Additional observations from a re-analysis of the deposited data

How the results depend on the processing

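No paired analysis was possible because both samples, an expression and a barcode library, come from 1 experiment and have no groups. Genes higher than in every interneuron set numbered 272, and 231 to 282 under other member rules, filters and left-out pieces, 249 without the nucleus holding most UMIs of each gene; the 205 lower genes ranged from 143 to 259. Thinning to 2000 UMIs gave 136 higher and 40 lower, of which 132 and 39 were among the 272 and 205, with fewer UMIs behind each; a 3 times rule gave 137 and 94. The RGC share of kept nuclei was 1.59% with at least 500 genes per nucleus, 1.81% with the looser rule and 0.955% with an inhibitory sum of 0. Genes differing between pieces numbered 42 with the looser rule, 35 with k-means pieces, 2 after thinning, 10 at 3 times, 17 at 50 UMIs and 9 without the top nucleus, so this count rests on few nuclei. Amacrine neighbours kept their direction (2.70 to 3.46 times). The median RGC distance from RPE ranged from 714 to 920 units. Distances of the other sets under these alternatives are not given, so their order was not followed. Of 819 alternative levels for 117 named genes, 630 lay within the reported interval and 189 outside it. Depth limits factors near 1 UMI per nucleus.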

Other observations

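Dorsoventral genes were read in RGC nuclei left and right of the centre of each ring, values that belong to no comparison above. Vax2, a ventral factor of the retina, had 1 UMI left and 12 right in piece 1, 1 left and 16 right in piece 2, 31 left and 6 right in piece 3, and 7 left and 0 right in piece 4. Tbx5, a dorsal factor, had 16 UMIs left and 1 right in piece 1, 13 left and 0 right in piece 2, 6 left and 3 right in piece 3, and 1 on each side of piece 4. The left sides of pieces 1 to 4 held 22, 20, 64 and 21 RGC nuclei and the right sides 29, 35, 33 and 9. Vax2 was higher on the right in pieces 1 and 2 and on the left in pieces 3 and 4. Its intervals left and right were apart only in piece 1 and overlapped in the others. In piece 4 they ran from 14.7 to 75.3 CPM on the left and from 0 to 59.1 CPM on the right. Tbx5 lay on the side with less Vax2 in pieces 1 and 2. In CPM, Vax2 on the left stood at 3.89, 5.25, 49.1 and 36.5 in pieces 1 to 4, and on the right at 48.9, 42.2, 15.7 and 0. Of 13 dorsoventral genes, 8 were tested against the interneurons and 0 were called (against 2.51% higher and 1.89% lower over all tested genes). Ephb2, a receptor with more transcript in ventral RGCs in development, stood at 307 CPM over all RGC nuclei. Its left sides had 366, 210, 284 and 303 CPM (pieces 1 to 4), its right sides 367, 306, 333 and 224 CPM, with overlapping intervals in every piece. It was nearly level in piece 1, higher on the side with more Vax2 in pieces 2 and 4, and higher on the other side in piece 3.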
